A study of Mus musculus with 6 samples.

Results

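The genes described here are the building blocks of the NF-κB system: the 5 DNA-binding subunits (Nfkb1, Nfkb2, Rela, Relb and Rel), the IκB inhibitors Nfkbia, Nfkbib and Nfkbie, and the catalytic IKK subunits Ikbkb and Chuk. They were chosen by name. Of these 10 genes, 8 had values among the 10245 genes measured by RNA-seq of mouse pancreas, and Rel and Nfkbie were not analysed here. The study compared whole pancreata of 3 control mice, Ptf1a(CreER/+), with 3 Ptf1a conditional knockout mice, Ptf1a(CreER/fl), abbreviated cKO. Ptf1a encodes the transcription factor that specifies and maintains the digestive enzyme-producing acinar cells. Both genotypes carried the CreER allele, in which tamoxifen-inducible Cre is expressed from the Ptf1a locus in place of that copy of the gene, so the controls had a single functional copy of Ptf1a and the cKO mice lost the remaining, floxed copy only in cells where Cre acted. By the study's description, its inducible Cre mice also carried a Cre-activated YFP reporter. All 6 mice received 3 doses of tamoxifen by gavage at 0.25 mg/g and were killed on day 14. The controls were 4 months old (1 male, 2 females) and the cKO mice 5 months old (2 females, 1 male), so age and genotype cannot be told apart. Each library came from a different mouse.

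In resting cells, NF-κB dimers are held in the cytoplasm by IκB proteins. Signals from cytokine and pattern recognition receptors activate the IKK complex, which phosphorylates IκB and marks it for degradation, so that dimers such as p50/RelA enter the nucleus (the canonical route). In the noncanonical route, the kinase NIK (Map3k14) activates IKKα, encoded by Chuk, and the Nfkb2 precursor is processed to a form that pairs with RelB. Several genes of the system, among them Nfkb1, Nfkb2, Relb and Nfkbia, are themselves known NF-κB targets, and in the pancreas the pathway is known for its activation in acinar cells during pancreatitis. Its activity is set largely at the protein level, and the values below are mRNA levels.

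The promoter windows of Nfkb2, which passed the test below, and of Nfkbia, the classic feedback gene, are shown because they hold matches to the NF-κB motif. The windows run from 250 bases before to 50 bases after an annotated start site (RefSeq, build GRCm38.p6), and capitals mark matches to the 10-base κB consensus on either strand. The first Nfkb2 window is chr19:46304487-46304786 (plus strand), the second is chr19:46305445-46305744 (plus strand), and the Nfkbia window is chr12:55492598-55492897 (minus strand).
Nfkb2, first start: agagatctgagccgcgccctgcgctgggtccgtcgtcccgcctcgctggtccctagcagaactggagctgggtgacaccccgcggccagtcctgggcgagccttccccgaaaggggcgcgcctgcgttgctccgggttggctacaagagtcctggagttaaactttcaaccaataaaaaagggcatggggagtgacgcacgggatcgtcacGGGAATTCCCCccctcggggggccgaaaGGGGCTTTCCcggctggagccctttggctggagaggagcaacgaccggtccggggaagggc
Nfkb2, second start: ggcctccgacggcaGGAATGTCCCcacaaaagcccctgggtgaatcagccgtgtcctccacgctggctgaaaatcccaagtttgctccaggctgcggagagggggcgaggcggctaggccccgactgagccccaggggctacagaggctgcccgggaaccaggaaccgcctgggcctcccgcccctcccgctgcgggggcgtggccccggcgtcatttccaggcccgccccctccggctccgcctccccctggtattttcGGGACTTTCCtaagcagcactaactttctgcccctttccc
Nfkbia: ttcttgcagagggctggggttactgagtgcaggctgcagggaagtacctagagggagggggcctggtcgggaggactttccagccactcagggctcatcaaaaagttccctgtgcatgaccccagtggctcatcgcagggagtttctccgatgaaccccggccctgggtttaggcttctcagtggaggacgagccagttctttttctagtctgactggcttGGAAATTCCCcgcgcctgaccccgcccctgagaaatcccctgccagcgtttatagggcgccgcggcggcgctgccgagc
In the first Nfkb2 window, overlapping matches began 39 and 38 bases before the start and a further match began 11 bases before it. In the second window, matches began 236 bases before and 11 bases after the start. The Nfkbia match began 29 bases before the start. The last Nfkb2 window held only the downstream match of the second. Of the 10 genes, 7 matched an entry (Nfkb2, Rela, Rel, Nfkbia, Nfkbib, Nfkbie and Chuk). The consensus occurred in the windows of Nfkb2, Rel, Nfkbia and Nfkbie, and it was not found in those of Rela, Nfkbib and Chuk. Counted by window, 6 of 9 (66.7%) held a match, against 1480 of all 32851 promoter windows (4.51%). A match is a description of the letters and does not show binding.

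The libraries matched their labels. Ptf1a had normalized counts of 566, 601 and 652 in control replicates 1 to 3 and 19.8, 70.1 and 10.2 in cKO replicates 1 to 3, so cKO replicate 2 kept the most. The 35 acinar genes of a marker list, digestive enzymes and other secreted proteins, made up 78.9% to 81.9% of the summed normalized counts in controls and 38.1% to 63.6% in cKO libraries. In whole-tissue samples such as these, fewer cells of a type and less RNA per cell cannot be told apart. cKO replicate 3 stood apart in its content of immune cell mRNA, as described below. It was the highest of the 6 libraries for 5 of the 8 members (Nfkb1, Nfkb2, Relb, Nfkbia and Ikbkb), and for 25% of all genes. Its sum of 4 fat cell markers was also the highest, at 836 normalized counts. That sum was 253 and 340 in cKO replicates 1 and 2 and 164 to 404 in the controls, and 0 of the 4 rose by the test below. Fold changes and counts of calls are therefore also given without cKO replicate 3.

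Of the 8 members, 2 rose in Ptf1a cKO pancreata, namely the genes of the precursor subunits, Nfkb1 and Nfkb2. The other 6 did not pass the test (limma on log2 values, Benjamini-Hochberg adjusted p under 0.05 over all 10245 genes), and 0 fell. At an unadjusted limma p under 0.05 the counts were 3 higher (Ikbkb added) and 0 lower, against 23.6% and 21.7% of all genes. Across all genes, 33.9% passed the test, 17.1% as higher and 16.8% as lower in cKO. The members' share called higher, 2 of 8 (25%), is to be read against that 17.1%. Control and cKO values did not overlap for 4 members that were higher (Nfkb1, Nfkb2, Rela and Ikbkb) and for 1 that was lower (Chuk), where 26.5% of all genes lay apart as higher and 24.3% as lower. The median log2 fold change of the 8 was 0.45, against 0.04 over all genes, and 0.29 against 0.03 without cKO replicate 3. In that fit 1 member rose (Nfkb1) and 0 fell, where 11.5% of all genes rose and 12.3% fell.

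**Figure D1:**
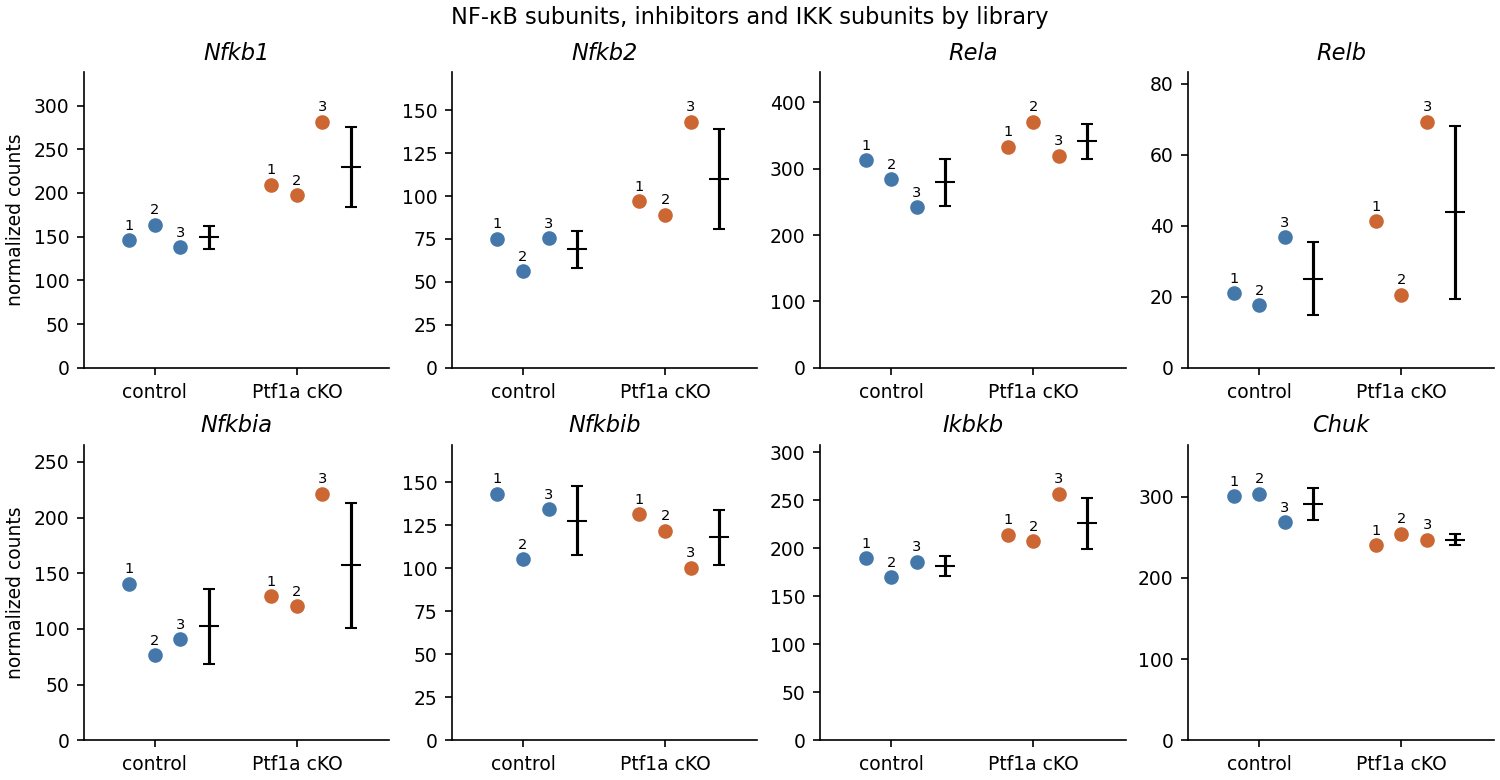
Normalized counts of the 8 measured members (y axis, each panel on its own scale from 0) in the 3 control (blue) and 3 Ptf1a cKO (orange) libraries, numbered by replicate. Bars give the mean ± SD (n = 3). The groups lie apart for Nfkb1, Nfkb2, Rela, Ikbkb and Chuk, and cKO replicate 3 is the highest library in 5 panels.

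Among the subunits, Nfkb1 had the smallest adjusted p. It encodes p105, the precursor of p50. Its normalized counts were 146, 164 and 138 in the controls and 209, 198 and 282 in the cKO libraries. Every cKO library lay above every control, and the spread within the cKO group came mainly from replicate 3. The mean rose from 149 ± 13.4 to 230 ± 45.6 (SD, n = 3), a ratio of 1.54, and the log2 fold change was 0.60 (SE 0.15, 95% interval 0.25 to 0.94, limma adjusted p = 0.0162). Without cKO replicate 3 the log2 fold change was 0.44 (limma adjusted p = 0.0477), and without control replicate 1 it missed the threshold (limma adjusted p = 0.0554).

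Nfkb2 encodes p100, the precursor of p52 in the noncanonical route, and its promoters are the windows with several κB matches printed above. Normalized counts of Nfkb2 were 75.1, 56.2 and 75.4 in the controls and 97.1, 89.2 and 143 in the cKO libraries, again without overlap and with cKO replicate 3 the highest. The means were 68.9 ± 11.0 and 109.9 ± 29.2 (SD, n = 3), and the log2 fold change was 0.63 (SE 0.20, 95% interval 0.18 to 1.08, limma adjusted p = 0.0375). The call held in 1 of the 6 fits that left out a library, against 5 of 6 for Nfkb1 (for Nfkb2, without cKO replicate 2, limma adjusted p = 0.0204). In the other 5 fits the log2 fold change ran from 0.43 without cKO replicate 3 (limma adjusted p = 0.123) to 0.70 without cKO replicate 1 (limma adjusted p = 0.058).

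Rela encodes p65, the main transactivating partner of p50. The libraries held 312, 284 and 242 normalized counts in the controls and 333, 371 and 319 in the cKO libraries. The groups did not overlap, although control replicate 1 lay close to the lowest cKO library, cKO replicate 3. The log2 fold change was 0.29 (SE 0.13, 95% interval -0.00065 to 0.58), which did not pass the test (limma adjusted p = 0.111). It was 0.19 without control replicate 3, the library with the lowest Rela (limma adjusted p = 0.251), and 0.33 without cKO replicate 3 (limma adjusted p = 0.129). Unlike Nfkb1 and Nfkb2, Rela was lowest in replicate 3 among the cKO libraries.

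Relb, the partner of p52, was the lowest and most variable member. It had 20.9, 17.7 and 36.8 normalized counts in the controls and 41.2, 20.7 and 69.3 in the cKO libraries, and the groups overlapped. The log2 fold change of 0.64 was as large as that of Nfkb2, but its 95% interval ran from -0.29 to 1.57 (limma adjusted p = 0.258). Leaving out single libraries moved it between 0.26 (without cKO replicate 3) and 1.05 (without cKO replicate 2), and only the latter fit passed the test (limma adjusted p = 0.0391).

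The IκB inhibitors gave values of opposite sign, and neither passed the test. Nfkbia encodes IκBα, the inhibitor that is resynthesised after NF-κB activation. Its normalized counts were 141, 76.2 and 90.8 in the controls and 130, 120 and 221 in the cKO libraries, so control replicate 1 exceeded cKO replicates 1 and 2. The log2 fold change was 0.59 (SE 0.27, 95% interval -0.01 to 1.20, limma adjusted p = 0.117), and it was 0.32 without cKO replicate 3 (limma adjusted p = 0.357). The interval thus runs from just below 0 to beyond the change of Nfkb1. Nfkbib encodes IκBβ. It had 143, 105 and 134 normalized counts in the controls and 132, 122 and 100 in the cKO libraries, with overlapping groups, and the log2 fold change was -0.11 (95% interval -0.46 to 0.25, limma adjusted p = 0.624).

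The catalytic IKK subunits also had values of opposite sign. Ikbkb encodes IKKβ, the kinase of the canonical route. Its normalized counts were 190, 170 and 186 in the controls and 214, 207 and 257 in the cKO libraries. All cKO values lay above all controls, and the log2 fold change was 0.30 (SE 0.12, 95% interval 0.03 to 0.58), with a limma adjusted p of 0.0843 (without cKO replicate 3, a log2 fold change of 0.21 and a limma adjusted p of 0.262). Chuk encodes IKKα. Chuk had 301, 304 and 269 normalized counts in the controls and 241, 255 and 247 in the cKO libraries. All cKO values lay below all controls, and the log2 fold change was -0.23 (SE 0.11, 95% interval -0.47 to 0.01, limma adjusted p = 0.123), and it was again -0.23 without cKO replicate 3. Scaling all libraries to the same total, which moved the median gene from 0.04 to 1.48, put Chuk at 1.25 and Nfkbib at 1.35, above 0 but both below that median gene.

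**Figure D2:**
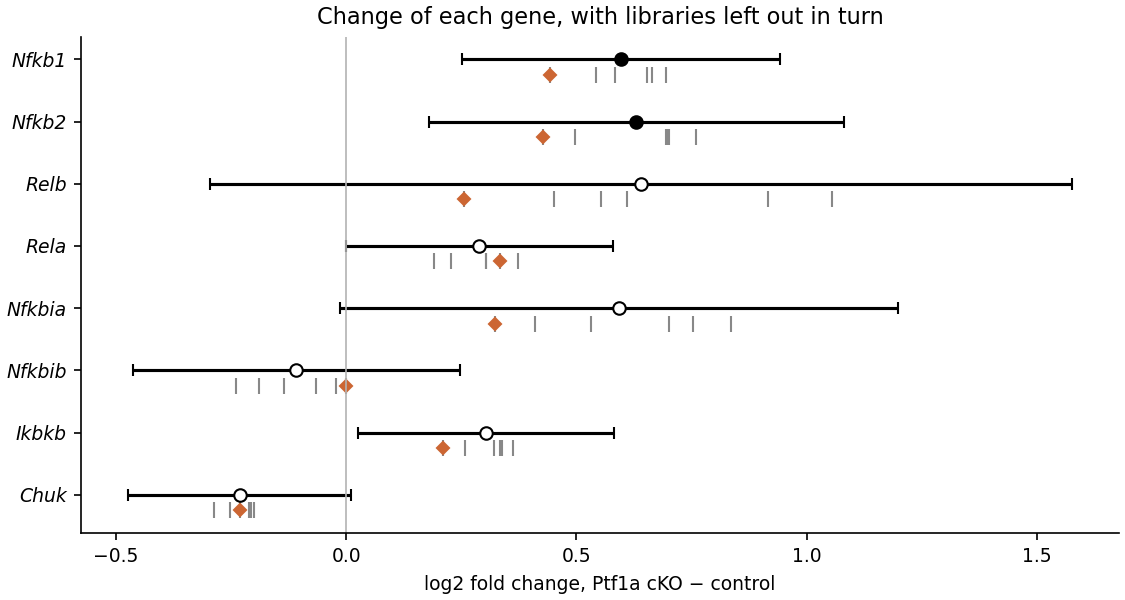
Log2 fold change (x axis, Ptf1a cKO minus control) of each member with its 95% interval from limma. Filled points passed an adjusted p of 0.05, grey ticks are fits that leave out 1 library, and the orange diamond is the fit without cKO replicate 3. Nfkb1 and Nfkb2 are the filled points, and the diamond lies left of the point for Nfkb1, Nfkb2, Relb, Nfkbia and Ikbkb.

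For single genes, an exact two-sided permutation test of 3 against 3 libraries cannot give a p below 0.10. That value was reached by Nfkb1, Nfkb2, Rela, Ikbkb and Chuk, the members whose groups lay apart. Relb and Nfkbia had exact p = 0.30, and Nfkbib had exact p = 0.50.

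Ratios between members within a library do not depend on how the libraries were scaled. Of 5 ratios computed, the ratio of Chuk to Ikbkb was the only one whose groups did not overlap. It was 1.59, 1.79 and 1.45 in the controls and 1.12, 1.23 and 0.961 in the cKO libraries. Chuk normalized counts exceeded those of Ikbkb in every control, and in cKO replicate 3 they fell just short of them. The log2 difference was -0.54 (exact permutation p = 0.10, the smallest this design allows, and 0.50 after adjustment over the 5 ratios). The ratio of Nfkb1 to Rela was 0.467, 0.577 and 0.569 in the controls and 0.628, 0.533 and 0.883 in the cKO libraries, with cKO replicate 2 inside the control range (exact permutation p = 0.30, adjusted 0.75). Nfkbia relative to Nfkb1 had a log2 difference of 0.00, with means of 0.696 ± 0.251 and 0.671 ± 0.0994 (SD, n = 3). Nfkbia relative to Rela (log2 difference 0.32, exact permutation p = 0.50) and Nfkb2 relative to Relb (log2 difference -0.05, exact permutation p = 1) also overlapped.

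**Figure D3:**
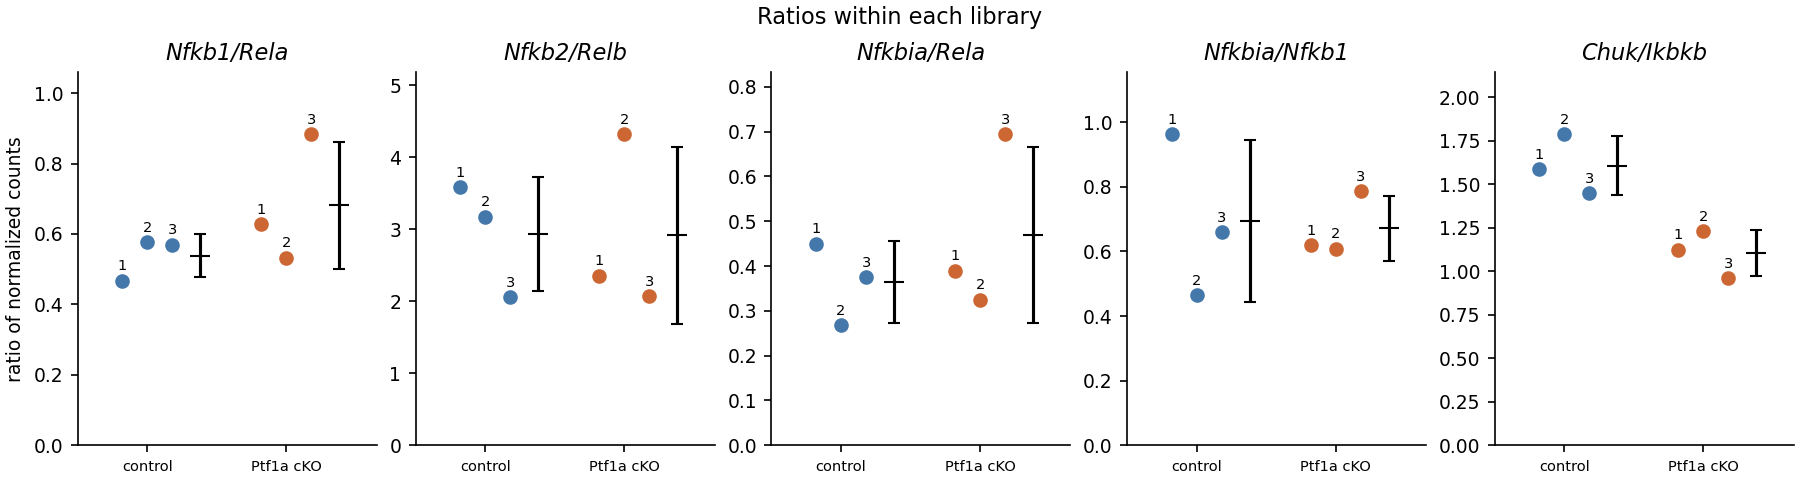
Ratios of normalized counts within each library (y axis, each panel from 0) for 5 pairs of members in control (blue) and Ptf1a cKO (orange) pancreata, numbered by replicate, with mean ± SD (n = 3). The groups lie apart for Chuk/Ikbkb, with means of 1.61 in controls and 1.10 in cKO, and overlap in the other panels.

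To compare levels between genes, normalized counts were divided by the length of the longest coding transcript (GENCODE vM21) and expressed per kilobase. Rela had the highest level in the controls, 103 ± 13.0 normalized counts per kilobase (SD, n = 3), followed by Chuk with 83.2 ± 5.51, Nfkbia with 65.0 ± 21.4, Nfkbib with 61.9 ± 9.69, Ikbkb with 45.7 ± 2.62, Nfkb1 with 36.2 ± 3.26, Nfkb2 with 17.9 ± 2.86 and Relb with 11.4 ± 4.61. Chuk, Nfkbia and Nfkbib overlapped as neighbours in this order, as did Nfkb2 and Relb. Among the subunits measured, which leave out Rel, RelA mRNA was thus the most abundant and the noncanonical pair the least abundant. In the cKO libraries Rela was again the highest, at 126 ± 9.85 normalized counts per kilobase, and overlapped Nfkbia (99.5 ± 35.4). Nfkb1 reached 55.7 ± 11.1 and overlapped Ikbkb (56.9 ± 6.76), which in turn overlapped Nfkbib (57.2 ± 7.75), while Nfkb2 (28.6 ± 7.60) and Relb (19.8 ± 11.1) stayed lowest and Chuk was at 70.6 ± 2.00.

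Because immune cells express NF-κB subunits, their markers are given beside these results. Counts of markers that rose are to be read against 17.1% of all genes (11.5% without cKO replicate 3). The 8 leukocyte markers summed to 513, 402 and 590 normalized counts in the controls and 977, 614 and 2035 in the cKO libraries, and 5 of the 8 rose (1 of 8, Laptm5, without cKO replicate 3). Of 8 macrophage markers, 7 were measured and all 7 rose (6 of 7 without cKO replicate 3), with sums of 745, 470 and 742 in the controls and 1587, 1244 and 2102 in the cKO libraries. The T cell markers with a value, Lck and Cd4 (2 of 7 listed), summed to 172 in cKO replicate 3. The sum was 31.1 and 4.22 in cKO replicates 1 and 2 and 4.07 to 23.8 in the controls. Neither gene passed the test (limma adjusted p = 0.359 for Lck and 0.566 for Cd4). No gene measured had a maximum below 27.6 normalized counts, and both genes reached that level only in cKO replicate 3. Their sum therefore does not show separately that this library stands apart. Cd52 and Cd14, counted above as rising, stayed below 27.6 in every control. Fibroblast and stellate cell markers moved as well, with 9 of 10 higher (7 of 10 without cKO replicate 3), and 2 of 5 measured ductal markers (Sox9 and Spp1) rose.

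In cKO replicate 2 the leukocyte sum (614) was close to the highest control (590), but Lcp1 alone made up 288 of it. Lcp1 had 255 to 332 normalized counts in the controls. Of the 8 leukocyte markers, 6 were above every control in all 3 cKO libraries, where 26.5% of all genes lay apart as higher. Lcp1 and Fcer1g overlapped. In cKO replicate 2 the margin was negligible for Cd53 (34.0 against a highest control of 33.9) and Ptprc (57.0 against 56.2). It was widest for Laptm5 (97.5 against 68.8). The T cell sum of cKO replicate 2 (4.22) lay within the control range. In that library Nfkb1 (198) and Nfkb2 (89.2) were above every control, while Relb (20.7) and Nfkbia (120) were inside the control range. The macrophage sum was above every control in all 3 cKO libraries. The part of leukocyte, T cell and macrophage mRNA in the values of the members was not tested.

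**Figure D4:**
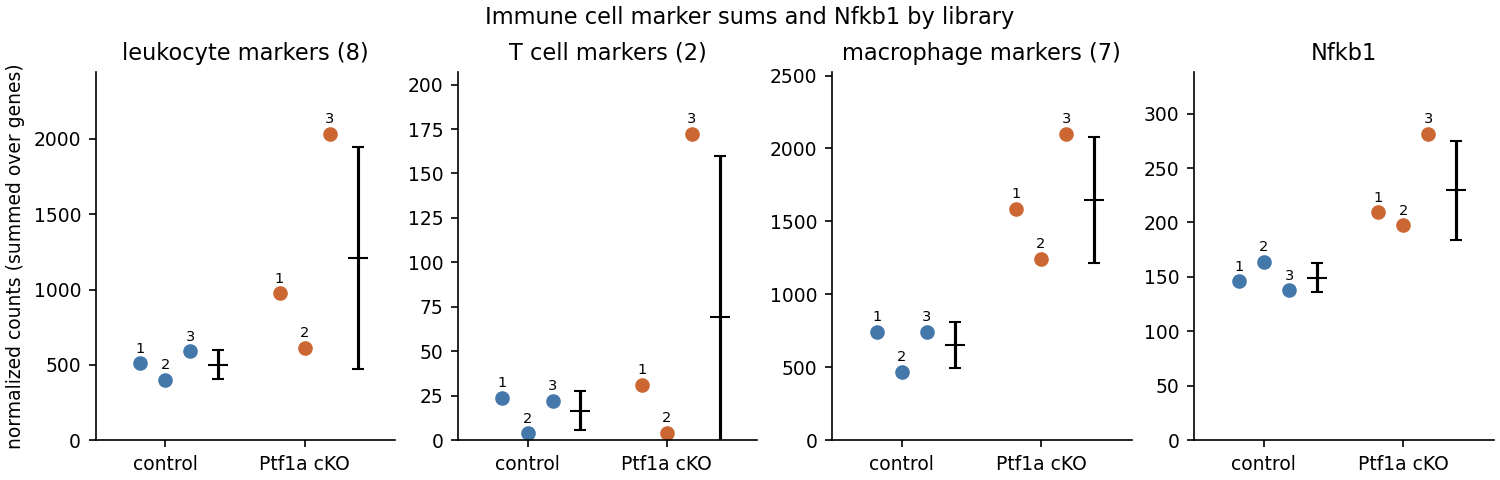
Summed normalized counts (y axis from 0) of 8 leukocyte, 2 T cell and 7 macrophage markers, and normalized counts of Nfkb1, in control (blue) and Ptf1a cKO (orange) libraries numbered by replicate, with mean ± SD (n = 3, a lower bar that would pass 0 ends there). cKO replicate 3 is highest in all 4 panels, and the T cell sum of cKO replicate 2 (4.22) lies within the control range. Both T cell markers have values only through cKO replicate 3, where alone they reached 27.6, the lowest maximum of any gene measured.

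The genes around this core were taken as 5 lists of 104 genes, of which 68 were measured. In all, 11 rose, 6 fell (0 fell with libraries scaled to the same total) and 51 did not pass the test. That is 25% passing, below the 33.9% of all genes (17.1% higher and 16.8% lower). The 11 of 68 that rose lay close to that 17.1%, and the 6 of 68 that fell lay below that 16.8%. The median log2 fold change was 0.19, against 0.04 over all genes. It includes genes below 27.6 in every control, the lowest maximum of any gene measured, which have values only through the cKO libraries. The lists were written with earlier results of these data known, and their counts are descriptions.

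Of 7 other core genes, 5 were measured and 1 rose (20%, where 17.1% of all genes rose). Nfkbiz, which encodes the nuclear protein IκBζ, a cofactor of p50 at secondary response genes, had the smallest adjusted p of the core genes. Its normalized counts were 117, 129 and 123 in the controls and 332, 291 and 295 in the cKO libraries, a ratio of means of 2.48 (log2 fold change 1.29, SE 0.11, limma adjusted p = 0.000112). Unlike Nfkb1 and Nfkb2, Nfkbiz was not highest in cKO replicate 3. Map3k14, the NIK kinase upstream of Chuk and Nfkb2 processing, had normalized counts of 14.0, 16.3 and 23.2 in the controls and 37.0, 25.7 and 44.3 in the cKO libraries, without overlap and just short of the threshold (log2 fold change 0.87, limma adjusted p = 0.0537). All Map3k14 controls lay below 27.6, the lowest maximum of any gene measured, so it has values only through the cKO libraries. The IKK-related kinase gene Ikbke had a log2 fold change of 0.56 (limma adjusted p = 0.0523), and Ikbkg, which encodes the regulatory IKK subunit NEMO, had 0.32 (limma adjusted p = 0.0846). Tbk1 had a log2 fold change of 0.15 with overlapping groups.

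The signal transducers are adaptors, kinases and ubiquitin ligases that link receptors to IKK. Of 26, 22 were measured, 0 rose and 1 fell by limma (3 and 3 at an unadjusted p under 0.05, where 23.6% and 21.7% of all genes passed), with a median log2 fold change of 0.03. The gene that fell was Irak1, the kinase downstream of interleukin-1 and Toll-like receptors, which had normalized counts of 1759, 1857 and 2012 in the controls and 1028, 1161 and 941 in the cKO libraries (log2 fold change -0.85, limma adjusted p = 0.00127).

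All 13 genes of the degradation machinery and negative regulators were measured. Of these, 3 rose (23.1%) and 1 fell (7.7%), to be read against 17.1% and 16.8% of all genes. Tnip1, the ABIN-1 partner of the A20 deubiquitinase, had normalized counts of 62.2, 43.3 and 41.4 in the controls and 140, 117 and 164 in the cKO libraries (log2 fold change 1.46, limma adjusted p = 0.000643). Tank, an adaptor of the TBK1 and IKKε kinases, rose from 297, 400 and 256 normalized counts in the controls to 684, 592 and 654 in the cKO libraries (log2 fold change 1.03, limma adjusted p = 0.00173). Skp1a, a subunit of the ubiquitin ligase that marks IκB for degradation, rose by less (log2 fold change 0.41, limma adjusted p = 0.0262). Tollip, an inhibitor of Toll-like receptor signaling, fell (log2 fold change -1.0, limma adjusted p = 0.000601), with 593 to 724 normalized counts in controls and 294 to 362 in cKO libraries. Tnfaip3, which encodes A20 itself, had 24.4, 29.0 and 21.7 normalized counts in the controls and 28.0, 21.6 and 66.5 in the cKO libraries, so that only cKO replicate 3 stood clear of the controls (log2 fold change 0.43, limma adjusted p = 0.404).

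Among receptors and ligands, 9 of 23 were measured, 3 rose (33.3%) and 2 fell (22.2%), against 17.1% and 16.8% of all genes. With only genes of a mean of at least 50 normalized counts, 1 rose and 1 fell. The double-stranded RNA receptor gene Tlr3 had normalized counts of 17.2, 11.8 and 11.8 in the controls and 38.3, 33.0 and 48.2 in the cKO libraries (log2 fold change 1.35, limma adjusted p = 0.00766). All Tlr3 controls lay below 27.6, the lowest maximum of any gene measured, so Tlr3 has values only through the cKO libraries. Tnfrsf1b, which encodes TNF receptor 2 (log2 fold change 1.22, limma adjusted p = 0.0261), and Tnfrsf12a, the TWEAK receptor gene (0.90, limma adjusted p = 0.0103), rose as well. Ltbr, the lymphotoxin β receptor gene of the noncanonical route (log2 fold change -0.47, limma adjusted p = 0.0112), and Tlr2, the bacterial lipoprotein receptor gene (-0.66, limma adjusted p = 0.0475) fell. Tnfrsf1a, which encodes the main TNF receptor of most cells, had a log2 fold change of 0.04 with overlapping groups.

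Of 35 known NF-κB target genes, 19 were measured, 4 rose and 2 fell, to be read against 17.1% and 16.8% of all genes. The count that rose was 0 without control replicate 2, 2 without cKO replicate 3 and 9 without cKO replicate 2. The median log2 fold change was 0.76, against 0.04 over all genes, and 0.42 against 0.03 without cKO replicate 3. Ccl5, Icam1 and Psmb9 stayed below 27.6, the lowest maximum of any gene measured, in every control. They therefore have values only through the cKO libraries, and their log2 fold changes (1.98, 0.84 and 0.96) all lie above this median. The complement gene C3 had normalized counts of 1009, 604 and 1136 in the controls and 1473, 1744 and 2925 in the cKO libraries (log2 fold change 1.14, limma adjusted p = 0.0154). The hyaluronan receptor gene Cd44 (log2 fold change 0.93, limma adjusted p = 0.0147) and Zfp36, which encodes an mRNA-destabilising protein (1.00, limma adjusted p = 0.0154), rose. The fourth was Irf1, an interferon-responsive transcription factor gene named here after its values were seen, whose groups overlapped (log2 fold change 1.07, limma adjusted p = 0.0202). The genes that fell were Myc, a growth-promoting transcription factor gene, with 377, 343 and 258 normalized counts in the controls and 67.9, 128 and 110 in the cKO libraries (log2 fold change -1.67, limma adjusted p = 0.000907), and Ccnd1, which encodes cyclin D1 (-1.17, limma adjusted p = 0.00148). Of the promoter windows matched to target genes, 10 of 27 (37.0%) held a κB consensus, against 4.51% of all promoter windows. The list was made of known targets, and some genes with a match, such as Il6 and Cxcl1, had no value here. Of the targets that rose, Irf1 held a match and C3, Cd44 and Zfp36 did not.

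Without cKO replicate 3, 7 genes of these lists rose (Nfkbiz, Tnip1, Tank, Tlr3, Tnfrsf12a, C3 and Zfp36) and 5 fell (Irak1, Tollip, Ltbr, Ccnd1 and Myc) of 68, where 11.5% of all genes rose and 12.3% fell. Skp1a, Tnfrsf1b, Cd44, Irf1 and Tlr2 no longer passed.

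**Figure D5:**
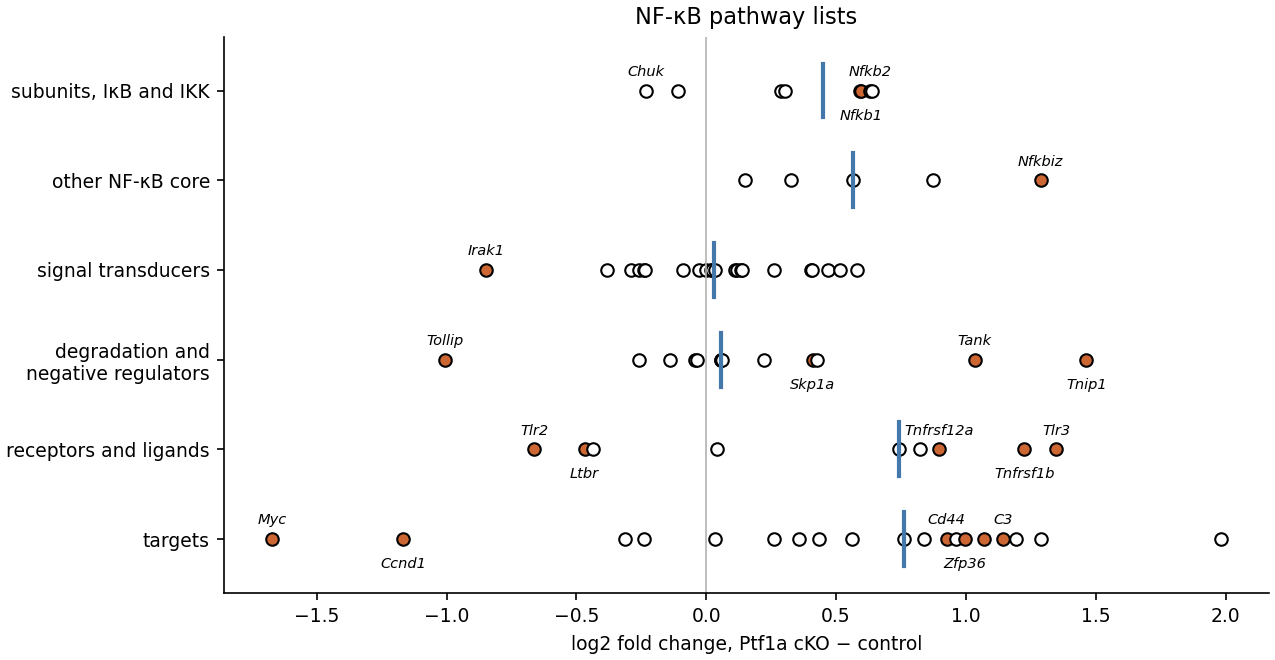
Log2 fold change (x axis, Ptf1a cKO minus control) of each measured gene of the core members and 5 NF-κB lists. Orange points passed a limma adjusted p of 0.05 and blue bars are list medians. Orange points lie on both sides of 0 in the receptor, regulator and target lists, and the transducers cluster around a median of 0.03.

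The profiles most like those of Nfkb1 and Nfkb2 over the 6 libraries were found by the Euclidean distance between centred log2 values. The nearest genes to Nfkb1 were Mkl2 (distance 0.142), Slc15a4 (0.149), Adar (0.149), Pds5b (0.152) and Mkl1 (0.156), against a median distance of 0.998 over all genes. Mkl1 and Mkl2 encode coactivators of serum response factor, Adar an RNA-editing enzyme and Pds5b a cohesin regulator. Mkl2, for example, had normalized counts of 127, 134 and 125 in the controls and 182, 181 and 258 in the cKO libraries, with the same high cKO replicate 3. The nearest genes to Nfkb2 were Sertad1 (0.119), Nab2 (0.170), Tnfsf10 (0.172), Eif2ak2 (0.191) and Slco2b1 (0.229), against a median of 1.11. Tnfsf10 encodes the death ligand TRAIL and Eif2ak2 the double-stranded RNA-activated kinase PKR. None of the other members was among these nearest genes, and with 6 libraries in 2 groups the distance reflects both the group difference and replicate 3.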

How the data were processed

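RNA-seq libraries (single-end, 50 nucleotides) were made from whole pancreata of 3 control and 3 Ptf1a cKO mice. The deposited signal values are read counts per gene that the authors normalized with edgeR's TMM method, which leaves decimals. The submitters' processing notes name TopHat2 2.0.4, Bowtie 0.12.7.0, SAMtools 0.1.18.0, HTSeq 0.6.0 and the mm9 build. The strand setting used in counting is not given in the sources used here. Whole reads could not be recovered from the values, so no count model was fitted, and the depth of a library could not be read from the scaled table. The lowest maximum over libraries was 27.6 normalized counts per gene. A gene below that level throughout 1 group therefore has values only through the other group. Of the rows, 3 named no gene, held 75.7% to 82.6% of a library's summed values and were left out.

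Values were divided by 13.6 (1 factor for all libraries), 0.25 was added and log2 was taken, so fold changes of low genes are understated. limma 3.58.1 (R 4.3.3) was fitted with a trend over all 10245 genes, two-sided, with Benjamini-Hochberg adjustment at 0.05, and was tested on simulated data with 200 changed genes. Where fold changes are given as ratios of means, the SD is over 3 mice. Exact permutation tests were run over the 6 libraries. Alternatives changed the scaling, the pseudocount, the trend, the filter, the threshold, sex as a covariate, the replicate block and each library in turn. The members and gene lists were chosen with earlier results of these data known. Named genes were all members, the genes of each other list that passed the test with groups apart (at most 8), Ikbkg, Map3k14, Nfkbiz and Tnfaip3 for their roles, Ptf1a, and the 5 nearest profiles of Nfkb1 and of Nfkb2. Ikbke, Tbk1 and Tnfrsf1a, which lie outside this rule, were named after their values were seen. Older symbols were used for lookup (Otulin as Fam105b, Adgre1 as Emr1). Promoter windows and transcript lengths come from GRCm38, and no coordinate was converted from mm9. A further marker list is not reported here.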

Additional observations from a re-analysis of the deposited data

How the results depend on the processing

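Nfkb1 passed the test in 16 of 18 alternatives and Nfkb2 in 11 of 18, and both log2 fold changes were positive in every alternative. The count of members that rose (2) was 1 without the variance trend, 0 at a threshold of 0.01, 4 with equal totals outside acinar genes, 8 with equal totals, and 0 to 3 when 1 library was left out. The 0 was without control replicate 1, and Nfkb1 alone rose without cKO replicate 3. For the other 5 lists, the 11 genes that rose became 17 with the replicate block, 21 with equal totals outside acinar genes, 64 with equal totals, 4 at a threshold of 0.01, and 5 to 19 when 1 library was left out (5 without control replicate 2, 7 without cKO replicate 3, 19 without cKO replicate 2). The 6 that fell became 0 with equal totals. Equal totals moved the median of all genes to 1.48 on the log2 scale and the calls to 9587 higher and 129 lower. Under it Nfkbib was at 1.35 and Chuk at 1.25, both reversed in sign. Relative to the median gene, both stayed below 0 and the other 6 members above it in every alternative that held them. Relb was in 17 alternatives, since the filter on the mean dropped it. Nfkbib also changed sign with equal totals outside acinar genes (0.039, with 70.4% of calls higher in place of 50.4%) and without cKO replicate 3 (0.00024, in a range of -0.24 to 0.00024 when 1 library was left out). With equal totals outside acinar genes Rela (log2 fold change 0.44, limma adjusted p = 0.0368) and Ikbkb (0.45, limma adjusted p = 0.0261) passed the test. At a threshold of 0.01, 832 of all genes rose and 962 fell, in place of 1751 and 1724, and leaving out single libraries gave as few as 1177 that rose and 1182 that fell.

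Replicate numbers are shared between the groups but belong to different mice, and the deviations of same-numbered libraries correlated at 0.04, 0.13 and 0.14, so they were not taken as pairs. cKO replicate 1 correlated best with control replicate 2. With the replicate block, members that rose stayed at 2 (limma adjusted p = 0.0237 for Nfkb1 and 0.0169 for Nfkb2). The number of mice limits precision most for Relb, the lowest member, whose interval spans 0.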
